A study of Homo sapiens with 6 samples.

Results

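In A549 cells, 444 regions of accessible chromatin were called after dexamethasone alone, in each of its 3 libraries, while lying within 10 kb of chromatin called accessible in every library of either treatment. They were chosen by merging the peaks of 6 DNase-seq lists that shared at least 1 bp, which gave 81216 regions. A region was kept where 3 of 3 dexamethasone and 0 of 3 ethanol lists had a peak in it and where its centre lay at most 10 kb from that of the nearest constitutive region, meaning one with a peak in all 6 lists. Constitutive regions numbered 39934. The 444 regions made up 0.547% of all merged regions and 49.5% of the 897 dexamethasone-only regions. The other 453 dexamethasone-only regions lay farther than 10 kb from a constitutive region.

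A549 is a human lung adenocarcinoma line. The cells had been treated for 1 h with dexamethasone at 100 nM (3 libraries) or for 1 h with ethanol at 0.02% (3 libraries), the vehicle. In DNase-seq, the enzyme DNase I cuts DNA where chromatin is accessible and the cut ends are sequenced, and a peak marks a place where more ends fell than the caller's estimate of the local background. The labels do not say whether the libraries of a treatment came from separate cultures, so their spread may be technical and p-values measure only that spread.

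Dexamethasone is a synthetic agonist of the glucocorticoid receptor, a nuclear receptor that waits in the cytoplasm and enters the nucleus once it holds a hormone. There it binds DNA directly at glucocorticoid response elements or through other factors, and it recruits remodelling enzymes that can move nucleosomes. In cells examined by others, much of its binding falls in chromatin that is open before hormone, while a smaller share of sites becomes accessible with hormone. Promoters and active enhancers, which hold general and lineage-specific factors, make up much of the chromatin that stays open in any condition. Regions are given by hg19 position alone, since gene annotation and sequence of that build were not used here, and the line was not checked by its marker genes.

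The lists held 58360, 60646 and 58677 peaks in dexamethasone libraries 1 to 3, and 58281, 60453 and 61344 peaks in ethanol libraries 1 to 3. They covered 21.8 to 23.9 Mb each. Of all merged regions, 1.1% were dexamethasone-only and 0.662% (538 regions) were ethanol-only, of which 201 lay within 10 kb of a constitutive region. The files give no read totals. Whole numbers of reads at each summit, the highest point of a peak, and the caller's background estimate could be worked back from the deposited fold enrichment and p-value for all but 1 peak of the 6 lists.

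The 444 regions were narrow and modest beside constitutive chromatin, and closer in height to ethanol-only regions. All of these values come from the peaks that chose the regions, so they are a description with no test. Their merged width ran between 220 and 770 bp with a median of 359 bp, against a median of 482 bp at constitutive regions. Those merge peaks of 6 lists and the 444 regions peaks of only 3, so these widths are not alike. The strongest peak in dexamethasone libraries 1 to 3 had median widths of 298, 280 and 268.5 bp, against 366, 377 and 354 bp at constitutive regions. The median number of reads at the summit was 31, 29 and 28 in dexamethasone libraries 1 to 3. The middle 50% of regions lay between 24 and 43 reads in library 1, between 22 and 38.2 in library 2 and between 22 and 36 in library 3. Constitutive regions had medians of 53, 55 and 48 reads in the dexamethasone libraries and 51, 54 and 53 reads in the ethanol libraries.

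Dexamethasone-only regions far from constitutive chromatin had fewer reads, with medians of 24, 23 and 23 in the same libraries. Ethanol-only regions within 10 kb of a constitutive region had medians of 26 reads in each of the ethanol libraries. The background estimate was also higher at the regions near constitutive chromatin, with medians of 5.15, 4.91 and 4.85 reads per 200 bp, against 2.98, 3.04 and 3.24 at the far ones. Fold enrichment was in the opposite order to reads, with medians of 5.19, 4.95 and 4.79 near constitutive chromatin against 5.98, 5.66 and 5.61 far from it.

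**Figure D1:**
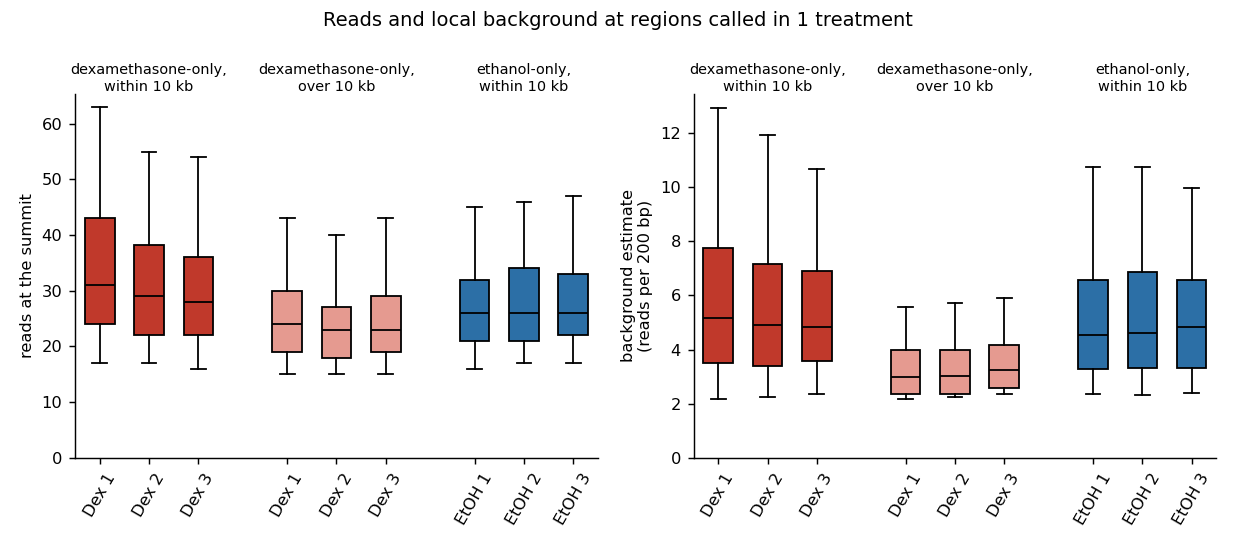
Reads at the summit (left, reads) and the caller's background estimate (right, reads per 200 bp) for dexamethasone-only regions within 10 kb of a constitutive region, dexamethasone-only regions farther away and ethanol-only regions within 10 kb, in each library that called them. Boxes span the quartiles with the median as a line and whiskers reach the 5th and 95th percentile of regions; the near dexamethasone-only regions have the highest medians of reads, 31, 29 and 28.

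The regions spanned a wide range of strength. Their mean percentile of −log10 q within the dexamethasone lists, where 50 is the middle peak of a list, ran between 2.53 and 75.2 with a median of 25.1. The far dexamethasone-only regions had a median of 24.3 and the near ethanol-only regions one of 20.02. Above the middle of their lists stood 46 of the 444 regions (10.4%), 44 of the 453 far regions (9.71%) and 0 of the 201 near ethanol-only regions. At the lower end, 221 of the 444 (49.8%) had a mean percentile under 25.

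The libraries placed these peaks in much the same spot. A single peak of the library lay in the region in 1325 of 1332 pairings of region and dexamethasone library. The positions of the 3 summits spanned a median of 50.5 bp, against 51 bp at the far regions and 28 bp at constitutive regions over the dexamethasone libraries. They lay within 100 bp of each other in 363 regions (81.8%) and more than 200 bp apart in 15. The coefficient of variation of the reads over the 3 libraries had a median of 15.2%, beside 15.6% at the far regions and 15.1% at constitutive regions. With ties counted for the library of the lower number, dexamethasone library 1 held the most reads in 244 of the 444 regions (55.0%). Library 2 did in 99 and library 3 in 101. The same count was not made at the far or constitutive regions.

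An ethanol list gives no value where it has no peak, so the reads of the ethanol libraries at the 444 regions are unknown, and a missing peak does not show closed chromatin. The distance to the threshold can be described instead. At the background measured in the dexamethasone libraries, a median of 16 reads (11 to 52) would give a p-value as strong as the weakest in the ethanol lists, whose −log10 p averaged 4.72. The regions held 1.73 times that number at the median, and between 1.14 and 3.97 times. No list holds a peak narrower than 200 bp, so width may count as well and this number is no strict limit. In the weakest of the 3 dexamethasone libraries, −log10 q was at least 5 in 402 regions (90.5%) and at least 10 in 132 (29.7%).

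The 12 regions with the highest mean percentile were strong peaks in each dexamethasone library, with 38 to 89 reads at the summit. Chromosome 17 held the leading pair. The region at 46032841 to 46033292 had 86, 67 and 78 reads at a distance of 6.53 kb from its constitutive neighbour, with fold enrichment of 7.82 ± 1.05 (SD, n = 3). The region at 1884728 to 1885205 had 77, 67 and 63 reads at 7.58 kb, with fold enrichment of 8.71 ± 0.29 (SD, n = 3). On average over the 3 lists, both stood higher than about 3 in 4 peaks, at mean percentiles of 75.2 and 75.1. The first stood at 79.3, 66.6 and 79.8 in dexamethasone lists 1 to 3, and the second at 76.4, 72.3 and 76.8.

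The third, on chromosome 12 at 6485110 to 6485751, had the most reads of the 12 on average, with 89, 88 and 76. It also lay in the most crowded place, since an ethanol peak began only 0.062 kb from its edge. That peak belonged to a separate region centred about 0.5 kb away, which had 50 and 47 reads in dexamethasone libraries 1 and 2 and no peak in dexamethasone library 3, against 49, 53 and 50 reads in ethanol libraries 1 to 3. When regions across gaps of 100 bp were joined, the chromosome 12 region was no longer dexamethasone-only.

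The region with the highest fold enrichment of the 12 lay on chromosome 18 at 21305619 to 21306233. Its reads, 57, 56 and 42, were not the highest, but its background estimate was low, at 3.96, 3.66 and 2.88 reads per 200 bp, so the fold enrichment reached 11.67 ± 0.58 (SD, n = 3). It held 3.97 times the reads needed to match the weakest ethanol peaks, the highest ratio of all 444 regions. The region on chromosome 11 at 122993018 to 122993448 was of the same kind, with 48, 38 and 41 reads and fold enrichment of 9.79 ± 0.64 (SD, n = 3).

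Chromosomes 20 and 5 each held a pair of the 12. On chromosome 20, the region at 23020351 to 23020979 had 65, 63 and 75 reads at 8.63 kb from its constitutive neighbour. The region at 62207120 to 62207434 had 61, 61 and 52 reads at 1.64 kb, the shortest distance among the 12, and its 3 summits lay within 3 bp. On chromosome 5, the region at 148358456 to 148359038 had 60, 40 and 62 reads at 6.05 kb, and the one at 31990858 to 31991307 had 63, 53 and 54 reads at 2.49 kb.

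The remaining 3 were on chromosomes 12, 8 and 16. They had 67, 47 and 71 reads (chromosome 12, 111505372 to 111505790), 47, 47 and 54 reads (chromosome 8, 29083175 to 29083523), and 64, 64 and 54 reads (chromosome 16, 2819664 to 2820051). The lowest value among the 12, 38 reads, was above the median of each library over the 444 regions. All of the 444 were chosen for a peak in all 3 dexamethasone libraries, and the 12 were ranked on those same peaks. Their height is therefore a description and no sign of how well it repeats.

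**Figure D2:**
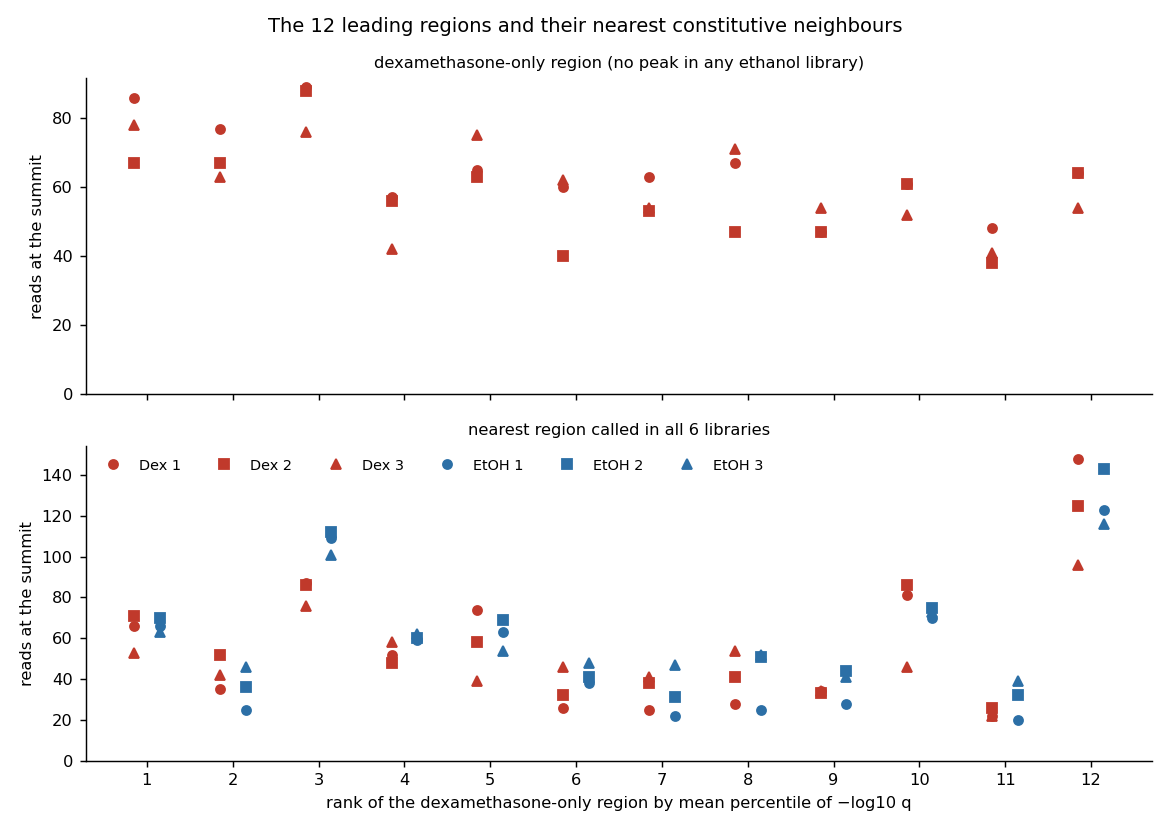
Reads at the summit in each library for the 12 dexamethasone-only regions with the highest mean percentile (top) and for the constitutive region nearest to each (bottom), ranked from left to right; red marks are dexamethasone libraries, blue marks ethanol libraries, and shapes number the libraries. The top panel holds no ethanol marks because no ethanol peak was called there, and in the bottom panel reads of the treatments overlap except at ranks 3 and 4, where every dexamethasone library lies below every ethanol library (87, 86 and 76 reads against 109, 112 and 101 at rank 3, and 52, 48 and 58 against 59, 60 and 62 at rank 4).

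None of the 12 constitutive neighbours of these leading regions passed a test between treatments, described below for all constitutive regions. Beside the chromosome 5 region at 31990858, the neighbour had 25, 38 and 41 reads in dexamethasone libraries and 22, 31 and 47 in ethanol libraries, so that in dexamethasone library 1 the dexamethasone-only peak stood well above the constitutive one. Beside the chromosome 11 region, the neighbour had 22, 26 and 22 reads in dexamethasone libraries and 20, 32 and 39 in ethanol libraries. In these pairs the groups overlapped. The neighbour of the crowded chromosome 12 region had 87, 86 and 76 reads in dexamethasone libraries and 109, 112 and 101 in ethanol libraries. There the groups did not overlap, but the difference of −0.37 on the log2 scale (SE 0.11) did not pass (limma, adjusted p = 0.288).

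Distance to constitutive chromatin, which the choice of regions used, ran between 0.398 and 9.94 kb with a median of 3.95 kb. Within 1 kb lay 84 regions (18.9%), within 2 kb 144 (32.4%) and within 5 kb 259 (58.3%). The closest were on chromosome 10 at 102587238 to 102587491 (0.398 kb), chromosome 11 at 20132828 to 20133182 (0.400 kb) and chromosome 17 at 46949442 to 46949730 (0.404 kb). They had 36, 42 and 39 reads, 28, 40 and 42 reads, and 43, 33 and 32 reads in dexamethasone libraries 1 to 3. These are peaks that stand beside a constitutive peak and were called apart from it in each dexamethasone list.

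Regions just inside and just outside the 10 kb limit had overlapping numbers of reads. The last regions inside it, on chromosome 14 at 51124947 to 51125269 (9.925 kb), chromosome 10 at 71224639 to 71225014 (9.93 kb) and chromosome 1 at 149615610 to 149615876 (9.94 kb), had 17, 16 and 15 reads, 28, 27 and 21 reads, and 19, 19 and 16 reads. The first outside it, on chromosome 2 at 69066423 to 69066745 (10.1 kb), chromosome 1 at 205335087 to 205335616 (10.17 kb) and chromosome 9 at 77375125 to 77375570 (10.2 kb), had 22, 27 and 22 reads, 30, 30 and 40 reads, and 17, 24 and 15 reads.

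Most of the regions had a single constitutive region within 10 kb (308, or 69.4%). A further 105 (23.6%) had 2 and 31 (6.98%) had 3 or more, up to 5, and 83 (18.7%) had constitutive regions on both sides. From edge to edge, the nearest ethanol peak of any kind lay at a median of 2.42 kb, within 100 bp of 27 regions (6.08%) and at 5 kb or more from 118 (26.6%). The dexamethasone-only regions seldom stood together, as 13 had another of the 444 within 10 kb and 42 (9.46%) within 50 kb.

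**Figure D3:**
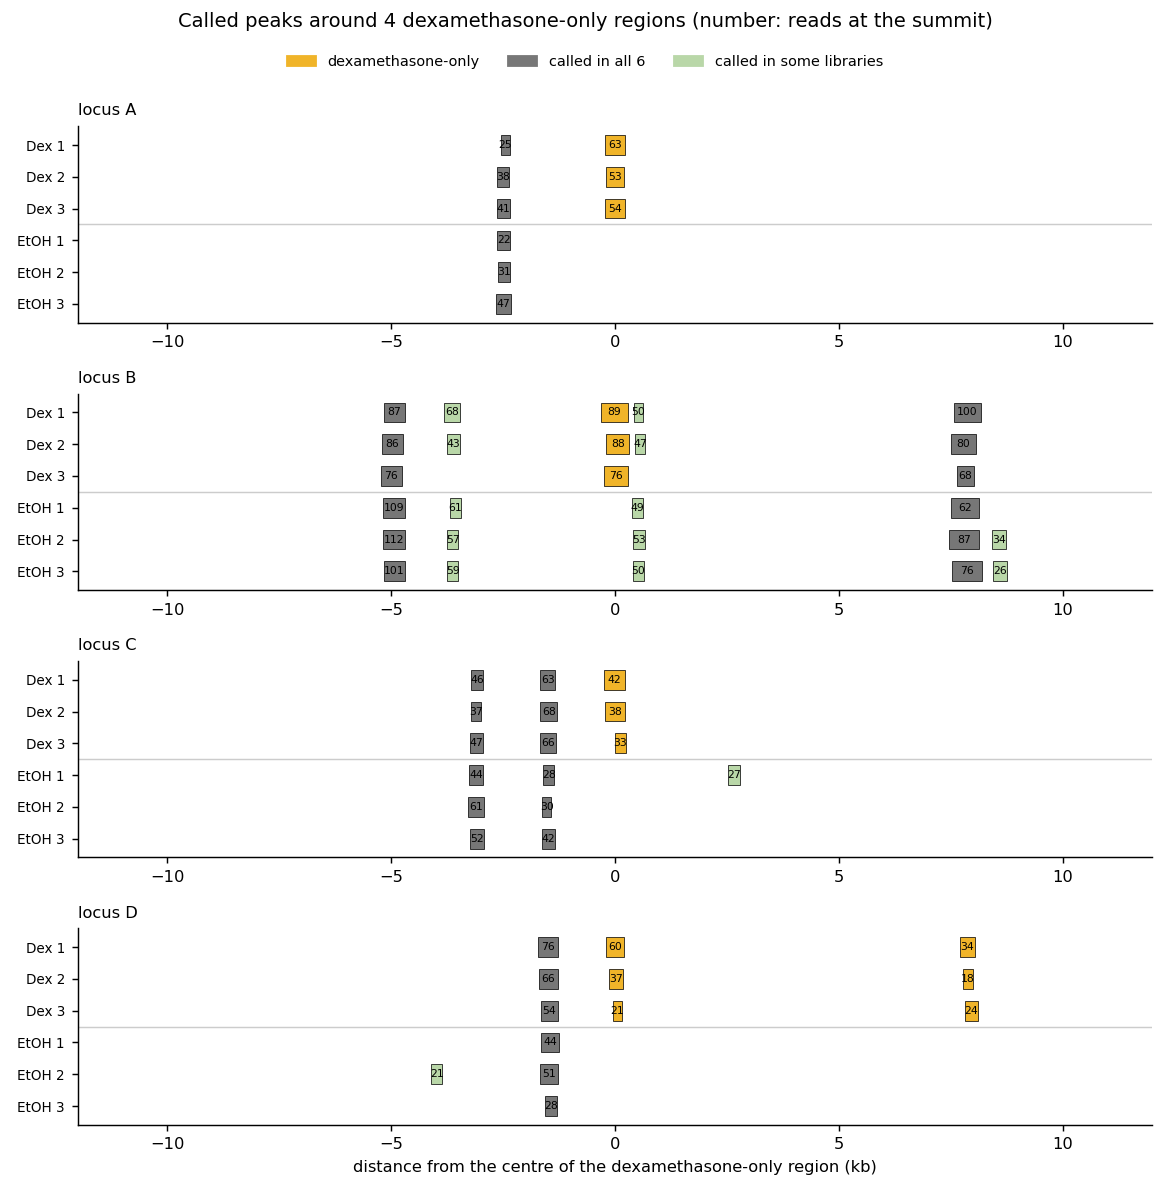
Called peaks in each library (rows, dexamethasone above ethanol) within about 10 kb of 4 dexamethasone-only regions on chromosome 5 at 31990858 (A), chromosome 12 at 6485110 (B), chromosome 20 at 45947457 (C) and chromosome 4 at 6752577 (D); the x axis is the distance in kb from the centre of the region and numbers are reads at the summit. Orange boxes, the dexamethasone-only regions, stand in dexamethasone rows alone, while grey boxes, the constitutive regions, stand in all 6 rows, with 63, 68 and 66 reads against 28, 30 and 42 beside the region in C.

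The 444 regions had 440 constitutive regions as nearest neighbours, each called in both treatments. Their fold enrichment was compared between treatments with limma, fitted on all constitutive regions after quantile normalization on the log2 scale. Fold enrichment is taken over a background estimate that may hold reads of a dexamethasone-only region nearby, so it is not independent of how the regions were chosen, and its counts and medians over the neighbours are a description that supports nothing further. The same holds for −log10 q. None of the 440 rose or fell at an adjusted p under 0.05, where the smallest adjusted p was 0.16. Over all constitutive regions 11 rose (0.0275%) and 0 fell (0%). At an unadjusted p under 0.05, 18 of the 440 were higher with dexamethasone (4.09%, against 3.54% of all constitutive regions) and 54 were lower (12.3%, against 3.6%).

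More of the neighbours had lower than higher fold enrichment with dexamethasone. Their median difference was −0.06 on the log2 scale, with the middle 50% between −0.19 and 0.05, and 283 of 440 (64.3%) were lower. Over all constitutive regions the median was 0.00. In 70 of the 440 (15.9%) all dexamethasone libraries lay below all ethanol libraries, against 5.59% of all constitutive regions. In 25 (5.68%) they lay above, against 5.73%. By reads at the summit the median difference of the same 440 was −0.0089 and 47.7% were higher, beside 48.8% of all constitutive regions.

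The median difference in fold enrichment varied with the distance to the dexamethasone-only region, with no test of that trend. For the 257 neighbours within 5 kb the median difference in fold enrichment was −0.12 and 75.5% were lower, while for the 185 neighbours over 5 kb away it was 0.00 and 51.4% were higher. Beyond 5 kb the classes differed among themselves. The 39 neighbours of regions at 5 to 6 kb had a median of −0.07 in fold enrichment, with 38.5% higher, beside medians of −0.09 in reads and 0.00 in background. That median in fold enrichment was close to the −0.06 of the class within 1 kb, where reads had a median of 0.01 and background one of 0.12. The other classes up to 5 kb lay lower, with medians in fold enrichment of −0.14, −0.12, −0.10 and −0.22 from the nearest to the farthest. Median fold enrichment of the close neighbours was 7.17, 7.18 and 6.90 in dexamethasone libraries 1 to 3 and 7.68, 7.88 and 7.76 in ethanol libraries 1 to 3, with no overlap. Of these neighbours 2 count in both distance classes, because they are nearest to a region in each. The split at 5 kb was chosen after seeing the data.

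For reads at the summits of the same close neighbours, the median difference was −0.01 on the log2 scale and 48.6% were higher with dexamethasone. The median reads were 57, 49 and 47 in dexamethasone libraries and 49, 51 and 53 in ethanol libraries, which overlap. The caller's background estimate around the summit was higher with dexamethasone in 220 of the 257 (85.6%), with a median difference of 0.15, and its medians were 6.72, 6.28 and 5.94 reads per 200 bp in dexamethasone libraries against 5.62, 5.72 and 5.74 in ethanol libraries. In 74 of the 257 (28.8%) every dexamethasone value lay above every ethanol value, against 2.76% of all constitutive regions.

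Over 5 kb away the median difference of the background estimate was 0.01. The recovered estimates move in steps of 0.02, which equals what 1 fragment of 200 bp would add to the mean of a 10 kb window, 5 kb to each side of a summit. The caller's settings are not given in the sources used here, and whether reads of the dexamethasone-only regions make up the difference in background was not tested.

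**Figure D4:**
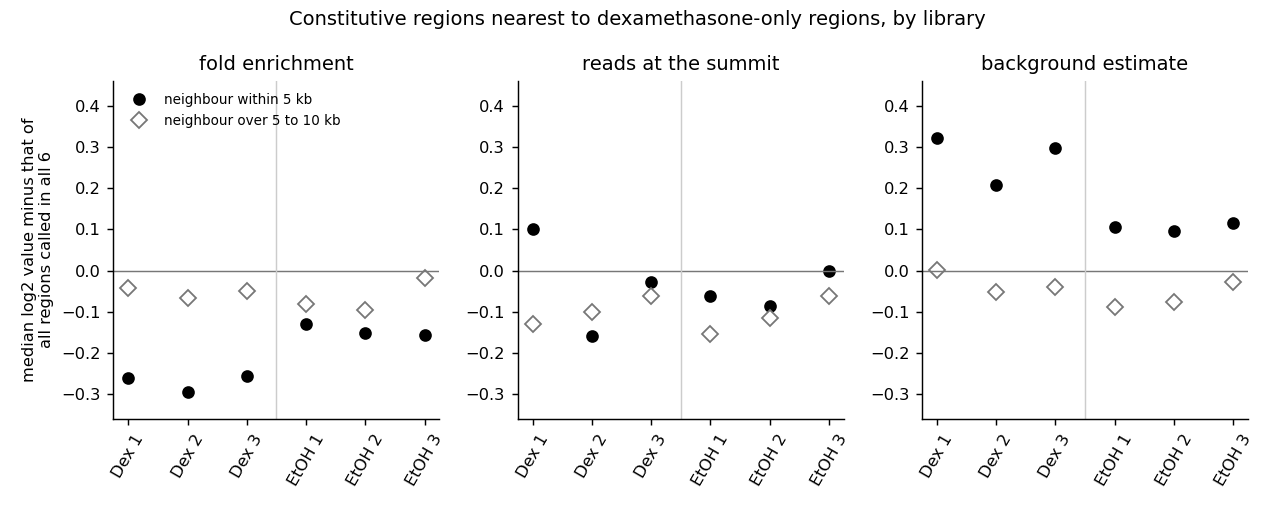
Median log2 value of the constitutive regions nearest to dexamethasone-only regions, minus the median over all constitutive regions of the same library, for fold enrichment, reads at the summit and background estimate; filled circles are neighbours within 5 kb and open diamonds neighbours over 5 to 10 kb away. Within 5 kb, fold enrichment stood at −0.26, −0.29 and −0.26 in dexamethasone libraries against −0.13, −0.15 and −0.16 in ethanol libraries, and background at 0.32, 0.21 and 0.30 against 0.11, 0.10 and 0.12.

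Pooled within 5 kb of ethanol-only regions, the medians of fold enrichment and background had the opposite sign and were smaller. By distance class this was uneven for fold enrichment. Its medians were −0.03 within 1 kb, 0.09 at 1 to 2 kb, −0.03 at 2 to 3 kb, 0.14 at 3 to 4 kb and 0.04 at 4 to 5 kb. Background medians in the same classes lay between −0.09 and −0.04. Of the 116 constitutive regions nearest to an ethanol-only region within 5 kb, 60.3% had higher fold enrichment with dexamethasone (median difference 0.04) and 75% had a lower background estimate (median difference −0.05). The difference between the neighbours of dexamethasone-only and ethanol-only regions was not tested.

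**Figure D5:**
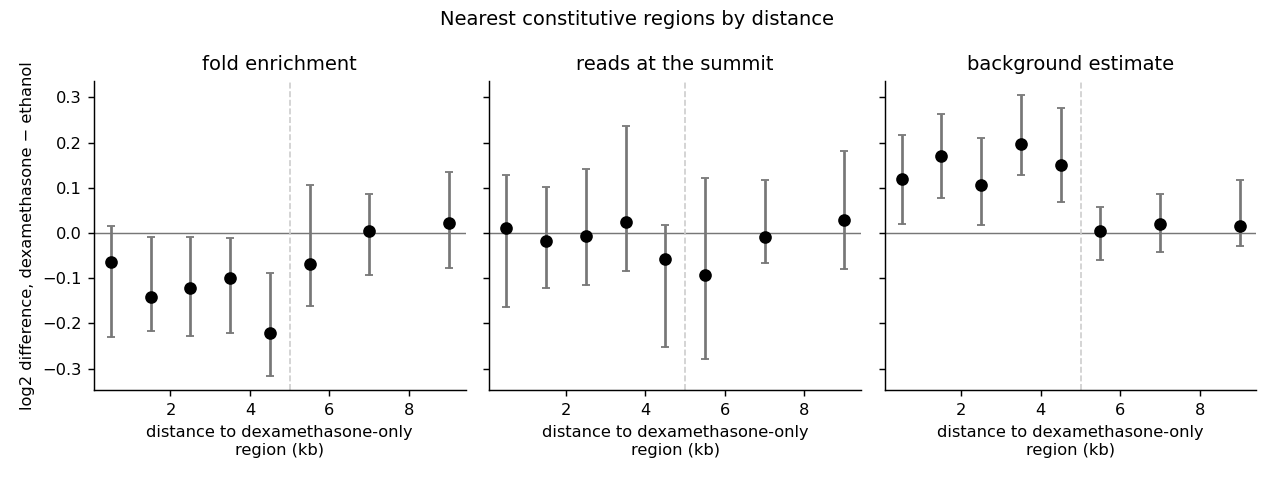
Difference between treatments (dexamethasone minus ethanol, log2) at the constitutive region nearest to each dexamethasone-only region, by the distance between them in kb, for fold enrichment, reads at the summit and background estimate. Points are medians over the regions of a distance class and bars span the quartiles; the fold enrichment medians lie below 0 up to 6 kb, while up to 5 kb, marked by the dashed line, the background medians lie between 0.11 and 0.20 and beyond it between 0.00 and 0.02.

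Of the 12 leading regions 6 lay within 5 kb of their neighbour, and the background estimates of the treatments overlapped at 4 of these neighbours and not at the other 2. Beside the chromosome 5 region at 31990858, the background estimate at the neighbour was 5.60, 5.36 and 6.50 reads per 200 bp in dexamethasone libraries and 3.22, 4.22 and 4.18 in ethanol libraries, with no overlap, while its reads overlapped as given above. Beside the chromosome 8 region, the neighbour had 34, 33 and 34 reads in dexamethasone libraries and 28, 44 and 41 in ethanol libraries. Its background estimate was 4.52, 5.04 and 5.22 in dexamethasone libraries and 3.76, 4 and 4.12 in ethanol libraries. At both neighbours the reads overlapped and the background did not. Background lay above without overlap in 28.8% of the 257 neighbours within 5 kb and in 2.76% of all constitutive regions. At the neighbour of the chromosome 12 region at 6485110 the background estimate was 13.5, 10.9 and 10.6 in dexamethasone libraries and 13.3, 11.3 and 11.2 in ethanol libraries. At that of the chromosome 20 region at 62207120 it was 9.06, 8.38 and 5.52 in dexamethasone libraries and 6.58, 7.56 and 7.26 in ethanol libraries. At that of the chromosome 12 region at 111505372 it was 7.28, 7.70 and 10.3 in dexamethasone libraries and 4.98, 7.36 and 7.18 in ethanol libraries. At these neighbours, and at that of the chromosome 11 region (3.22, 2.68 and 3.40 against 2.31, 2.32 and 2.82), the treatments overlapped.

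Compared by reads at the summit, which leave that background out, 5 of the 440 nearest neighbours rose with dexamethasone (1.14%, against 0.293% of all constitutive regions, which is 117) and 0 fell (0.0125% of all, which is 5). The test was limma on log2 reads after quantile normalization, added after seeing the data. Of the 200 constitutive regions nearest to an ethanol-only region within 10 kb, 2 rose (1%) and 0 fell. Of the 436 nearest to a far dexamethasone-only region, 3 rose (0.688%) and 0 fell. The difference between these sets was not tested. At an unadjusted p under 0.05, 35 of the 440 were higher (7.95%, against 3.13%) and 12 lower (2.73%, against 2.9%). Among those nearest to ethanol-only regions, 11 of 200 were higher and 7 lower. Among those nearest to far dexamethasone-only regions, 29 of 436 were higher and 10 lower. The 5 of the 440 that rose made up 4.27% of the 117. In 38 of the 440 (8.64%, against 3.52%) the reads of all dexamethasone libraries lay above those of all ethanol libraries, and in 25 (5.68%, against 4.9%) below. By −log10 q in place of fold enrichment, 4 of the 440 rose (0.909%, against 0.248% of all constitutive regions) and 0 fell (0.0175% of all did). By this measure 1 of the 200 nearest to ethanol-only regions rose (0.5%), as did 3 of the 436 nearest to far dexamethasone-only regions (0.688%).

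The strongest of the 5 lay on chromosome 20 at 45946011 to 45946395. It had 63, 68 and 66 reads in dexamethasone libraries and 28, 30 and 42 in ethanol libraries, a log2 difference of 1.04 (SE 0.19, limma adjusted p = 0.00835). The dexamethasone-only region 1.49 kb away, at 45947457 to 45947933, had 42, 38 and 33 reads. Here a constitutive peak with more reads in every dexamethasone library stands beside a peak called in those libraries alone. Another constitutive region about 3.1 kb from the same dexamethasone-only region had 46, 37 and 47 reads in dexamethasone libraries and 44, 61 and 52 in ethanol libraries, which overlap.

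Chromosome 19 held the next, at 48167189 to 48167817, with 75, 66 and 62 reads in dexamethasone libraries and 34, 31 and 41 in ethanol libraries (log2 difference 0.97, SE 0.18, limma adjusted p = 0.00908). Its dexamethasone-only region lay 3.39 kb away at 48170665 to 48171120 and was strong itself, with 53, 47 and 40 reads. A second chromosome 20 region, at 48220988 to 48221376, had 85, 56 and 70 reads in dexamethasone libraries and 32, 42 and 31 in ethanol libraries (log2 difference 1.03, SE 0.20, limma adjusted p = 0.0104). Its dexamethasone-only region, at 48212809 to 48213039 and 8.26 kb away, was weak by comparison, with 24, 23 and 20 reads.

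The other two lay close to their dexamethasone-only regions. On chromosome 2, the region at 45186058 to 45186408 had 85, 91 and 98 reads in dexamethasone libraries and 39, 66 and 58 in ethanol libraries (log2 difference 0.81, SE 0.17, limma adjusted p = 0.0319), beside a region 1.00 kb away at 45187025 to 45187444 with 58, 55 and 73 reads. On chromosome 9, the region at 86046971 to 86047576 had 82, 67 and 74 reads in dexamethasone libraries and 43, 48 and 44 in ethanol libraries (log2 difference 0.75, SE 0.17, limma adjusted p = 0.0400), beside a region 0.472 kb away at 86046670 to 86046933 with 28, 25 and 27 reads. In all 5 the dexamethasone and ethanol reads did not overlap, which follows largely from choosing them by those reads. Reads lay above without overlap in 3.52% of all constitutive regions. The background estimate was also higher in every dexamethasone library than in every ethanol library at each of the 5. At the first chromosome 20 region it was 10.1, 9 and 9.48 against 7.32, 8.2 and 7.78 reads per 200 bp. Background lay above in this way in 19.1% of the 440 and 2.76% of all constitutive regions. It may hold reads of the peak itself, by which the 5 were chosen, so it is no separate result.

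Each of these 5 calls was lost without 1 or more single libraries, while the differences stayed of similar size. With each library left out in turn, the log2 difference lay between 0.95 and 1.22 at the first chromosome 20 region, 0.87 and 1.08 on chromosome 19, 0.91 and 1.22 at the second chromosome 20 region, 0.60 and 0.95 on chromosome 2, and 0.67 and 0.87 on chromosome 9. The first chromosome 20 call was lost without dexamethasone library 2 or ethanol library 1 or 2 (adjusted p between 0.00587 and 0.111 over the libraries left out), the chromosome 19 call without dexamethasone library 1 or ethanol library 2 (0.0140 to 0.134), and the second chromosome 20 call without dexamethasone library 1 or ethanol library 3 (0.0125 to 0.111). The chromosome 2 call passed only without dexamethasone library 1 (0.0458 to 0.216), and the chromosome 9 call was lost whichever library was left out (0.0517 to 0.195). By fold enrichment, none of the 5 passed, with limma adjusted p between 0.182 and 0.630.

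Where 2 dexamethasone-only regions shared a nearest constitutive region, which happened at 4 places, the shared region did not pass the test either. On chromosome 10, the one at 99473047 to 99474489 had 70, 76 and 65 reads in dexamethasone libraries and 93, 98 and 96 in ethanol libraries (log2 difference −0.43, SE 0.12, limma adjusted p = 0.21). Its dexamethasone-only regions began at 99474575, with 34, 42 and 28 reads, and at 99478394, with 72, 37 and 46 reads. On chromosome 17, the shared region at 71794227 to 71794844 had 77, 66 and 75 reads in dexamethasone libraries and 95, 97 and 100 in ethanol libraries (limma adjusted p = 0.357).

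That chromosome 17 region stood between its dexamethasone-only regions, which began at 71792818, with 54, 47 and 52 reads, and at 71796183, with 85, 51 and 54 reads. The shared region on chromosome 2 at 85934384 to 85934760 had 44, 47 and 59 reads in dexamethasone libraries and 71, 66 and 64 in ethanol libraries (limma adjusted p = 0.757). In these 3 places every dexamethasone library had fewer reads than every ethanol library, as did 4.9% of all constitutive regions. The shared region on chromosome 4 at 6751073 to 6751522 went the other way, also without overlap. It had 76, 66 and 54 reads in dexamethasone libraries and 44, 51 and 28 in ethanol libraries (log2 difference 0.73, SE 0.20, limma adjusted p = 0.188). Of all constitutive regions, 3.52% lay above in this way. The 4 places are too few to compare with these shares, and they were not tested as a set.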

How the data were processed

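DNase-seq peak lists of 6 A549 libraries, 3 per treatment, were used, with positions in hg19. Per the submitters' processing notes, the tools included CASAVA 1.3, Bowtie, MACS2 2.1.0 and bedtools; settings are not given in the sources used here. Peaks were called per library, as far as the files show. From the layout of the columns, the ratio that the authors deposited is a peak's fold enrichment over the background that the caller estimated. Each peak also has a deposited −log10 p-value and −log10 q-value. The deposited score follows −log10 q and was not used further, and the deposited summit is an offset from the peak start.

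The members and lists were chosen with earlier results of these data known. Peaks sharing at least 1 bp were merged (Python 3.11.15, pandas 2.3.3), and a peak in a region counted as a call. Where a library had several peaks in a region, the strongest was used. Reads at the summit were recovered after seeing the data, as the whole number for which (reads + 1)/(background + 1) equals the fold enrichment and a Poisson upper tail equals the p-value, within a tolerance of 0.0001. The lowest background estimate, 2.18 to 2.38 reads per 200 bp, was close in all libraries, and total depth is unknown. Duplicate reads cannot be told from separate molecules.

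Constitutive regions were compared with limma 3.58.1 (R 4.3.3), with an intensity trend and no replicate block, on quantile-normalized log2 fold enrichment and, as an added alternative, on log2 summit reads. Benjamini-Hochberg adjustment ran over all constitutive regions. A single region compared over 3 against 3 libraries cannot go below an exact permutation p of 0.1.

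The rule named the 12 members with the highest mean percentile of −log10 q, the 3 nearest to each side of the 10 kb limit, the 3 closest to a constitutive region, members whose nearest constitutive region passed, and constitutive regions nearest to the most members. The percentile bands and distance classes were chosen after seeing the data. Planned motif searches, distances to gene starts, gene lists and marker checks were not run, as no sequence or annotation of hg19 was used. Positions count from 1.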

Additional observations from a re-analysis of the deposited data

How the results depend on the processing

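The number of dexamethasone-only regions near constitutive chromatin stayed between 412 and 615 under 6 alternatives: 418 with −log10 q of at least 5, 412 with regions joined across gaps of 100 bp, 427 with a cover of at least 50% of the region, 431 on autosomes, 455 by edges and 615 with a limit of 20 kb. It was 259 with a limit of 5 kb and 603 to 853 when a library was left out, the most without dexamethasone library 3. Leaving out a library asks for fewer calls, so the count grows by construction. Similar counts did not mean the same regions. Of the 444, 399 overlapped a region chosen with −log10 q of at least 5, and 369 one chosen with the cover of 50%. Of the 12 leading regions, 1 was lost by joining gaps, 3 by the cover of 50% and 6 by the limit of 5 kb. The nearest constitutive regions that rose numbered 4 by −log10 q and 5 by summit reads, against 0 by fold enrichment, and their median difference was −0.0089 by reads and −0.068 to −0.059 with a library left out. Over all constitutive regions, 99 rose and 7 fell by −log10 q, 117 rose and 5 fell by reads, 2 rose without normalization, 5 rose among the upper 75% of regions, 3 fell with the mean of several peaks, and 0 to 4 rose and 0 fell with a library left out. By reads, 1 to 3 nearest regions rose and 0 fell with a library left out, and over all constitutive regions 38 to 107 rose and 0 to 40 fell. The cause was not tested. Replicate numbers are shared by the treatments, but nothing in the labels says that they mark a batch, and deviations of equally numbered libraries correlated at 0.173, 0.094 and 0.116 (each library best with its own number, a hint from the data only), so the libraries were not taken as pairs. With the replicate block, 1657 regions counted as dexamethasone-only near constitutive chromatin, since it asks for a dexamethasone-only call in only 2 of 3 equally numbered pairs and never the reverse. Under it, 21 constitutive regions rose by fold enrichment, and 293 rose and 89 fell by reads, of which 15 and 1 were nearest neighbours. Alternatives on motifs and gene starts were not run. An absent peak gives no reads, which limits every statement on ethanol libraries at the 444 regions.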

Other observations

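Within 10 kb of the 444 dexamethasone-only regions lay 357 regions called in some libraries, but neither in all 6 nor in all 3 of a treatment and none of the other. Calls in dexamethasone libraries outnumbered those in ethanol libraries at 136 of them (38.1%), the reverse held at 163 (45.7%), and 58 had as many of each. Among the 16342 such regions within 10 kb of any constitutive region the shares were 39.4% and 43.2%. A peak in all dexamethasone libraries and some ethanol libraries was held by 23 of the 357 (6.44%), against 9.63% near any constitutive region. A peak in all ethanol libraries and some dexamethasone libraries was held by 52 (14.6%), against 13.9%. These differences were not tested.

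The 444 regions lay on 24 chromosomes, beside 39934 constitutive regions in all. Chromosome 1 held the most, 45, which is 11.7 per 1000 constitutive regions there, and chromosome 5 held 34 (17.9 per 1000). Chromosome 16 held 27 (15.7 per 1000), while chromosomes 7 and 11 held 7.78 and 7.96 per 1000 and chromosome 21 held 1 region (2.85 per 1000). Differences between chromosomes were not tested.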
